A study of Mus musculus with 4 samples.

Results

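Membrane peptidases are enzymes at the cell surface that cut small signalling peptides. The group described here is Enpep and 8 relatives by function: Anpep, Lnpep, Dpp4, Ace, Mme, Ece1, Cpm and Cpd. Enpep was chosen by its measured difference, since it had already stood out as lower in CX3CR1bright macrophages on these arrays, and the relatives were added by their function. Each gene was read from the transcript cluster (the array's set of probes for 1 transcript unit) that carried its symbol alone, and where a gene had several such clusters, from the one with the highest mean over the arrays. Of the 9 genes, 8 had such a cluster among 22180 genes in all, 1 cluster each, and Lnpep was not analysed here.

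RNA was measured on 4 Affymetrix arrays, 2 of CX3CR1low and 2 of CX3CR1bright macrophages. The cells were sorted from digested ear skin of untreated adult C57Bl/6 mice of genotype Cx3cr1+/gfp, kept under SPF conditions, and each array holds a pool of 3 to 6 animals. All arrays thus share the GFP allele, which takes the place of 1 copy of Cx3cr1, and the subsets differ by the gate alone as far as the labels say. Values are log2 levels from RMA, a method that corrects background, equalises the arrays and summarises probes.

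Surface peptidases act by the end of the peptide they cut. Aminopeptidases (Enpep, Anpep, Lnpep) and the dipeptidyl peptidase Dpp4 trim the amino end, carboxypeptidases (Cpm, Cpd) and the dipeptidyl carboxypeptidase Ace trim the carboxyl end, and the endopeptidases Mme and Ece1 cut inside the chain. Through such cuts they make, convert or end the action of angiotensins, kinins, endothelins, neuropeptides and chemokines. Several serve as surface markers of leukocytes: Anpep is CD13, Dpp4 is CD26, Mme is CD10 and Ace is CD143.

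The largest differences among the members were those of the aminopeptidases, of which Enpep was chosen for its difference. Enpep was 6.86-fold and Anpep 3.59-fold lower in CX3CR1bright than in CX3CR1low cells, Cpd was 1.69-fold higher, Dpp4 was 2.07-fold higher over CX3CR1low levels that can be background, and the levels of Ace, Mme and Ece1 overlapped between the subsets. Testing with limma needed a level over the array's median on 2 or more of the 4 arrays, which 7 members and 13133 genes in all had, and a gene was called at a Benjamini-Hochberg adjusted p under 0.05. Enpep was the 1 member called, where 0.137% of all tested genes were, and since it was chosen for that difference nothing is read from the call. The subsets did not overlap for 4 of the 7 members, 2 higher and 2 lower, against 50.4% of all tested genes (18.9% higher and 31.5% lower), which is near that background. At least 2-fold apart with no overlap were 3 of the 7, Enpep, Anpep and Dpp4, against 5.83% of all tested genes (2.94% higher and 2.89% lower). That count is a description and is not read against the background, since Enpep was chosen for its difference and Dpp4 passed the filter through the subset in which it is high. The members' median difference, CX3CR1bright minus CX3CR1low, was 0.12 on the log2 scale, against -0.070 over all tested genes. Without CX3CR1bright replicate 2 that median was -0.28, 5 members did not overlap and 2 were at least 2-fold apart, where 76.6% and 6.43% of all tested genes did so. Without CX3CR1bright replicate 1 the median was 0.57 and the counts were 7 and 5, against 79.0% and 9.52% of all tested genes.

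**Figure D1:**
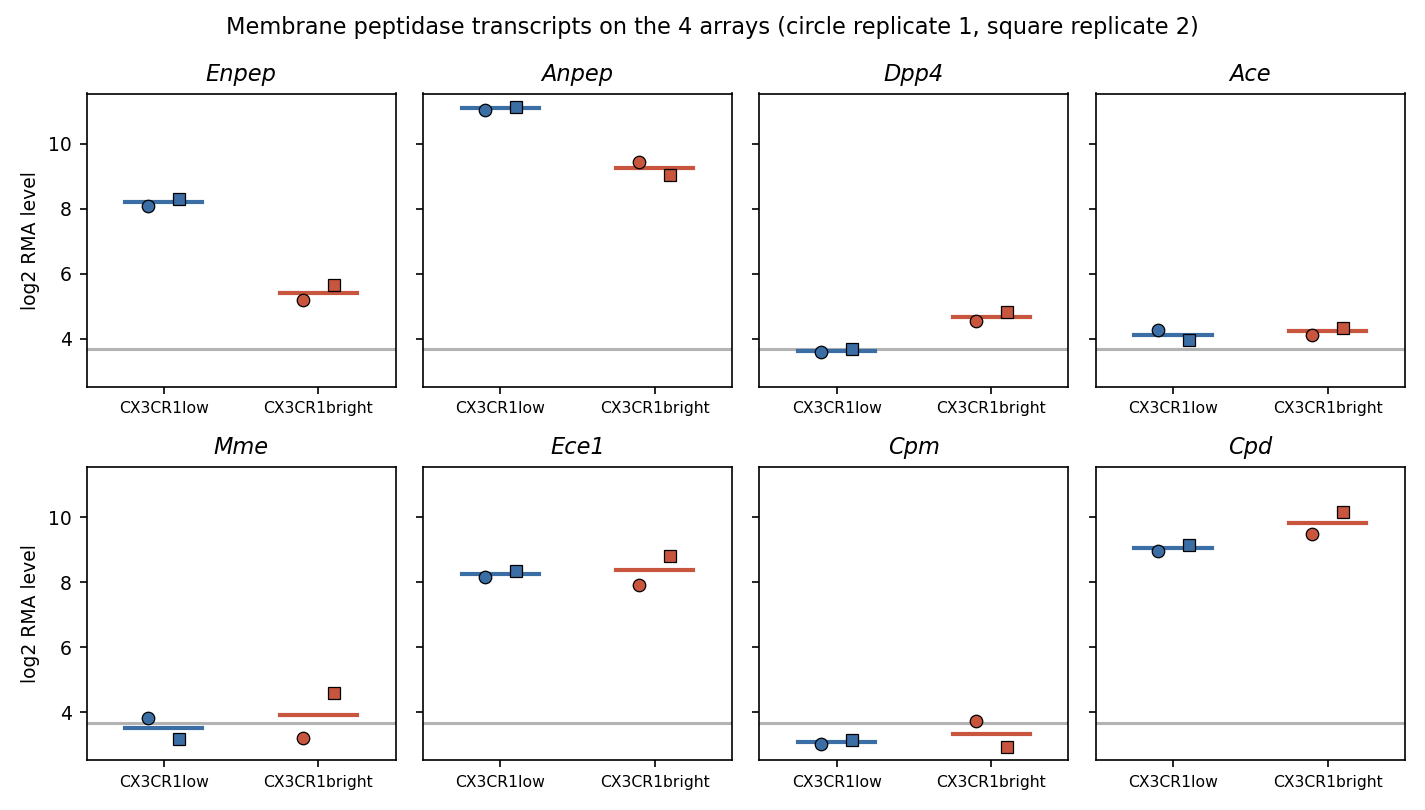
Log2 RMA level (vertical axis) of the 8 analysed membrane peptidases on the CX3CR1low (blue) and CX3CR1bright (red) arrays. Circles are replicate 1, squares replicate 2, short bars the mean of 2 arrays, and the grey band spans the array medians, 3.65 to 3.68. Enpep and Anpep lie lower and Dpp4 and Cpd higher on the CX3CR1bright arrays, and the points of the other 4 genes overlap.

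Sorted cells were checked against markers. Cx3cr1 itself stood at 3.62 ± 0.023 in CX3CR1low and 8.43 ± 0.011 in CX3CR1bright cells (SD, n = 2), as the gate sorts them. The 14 macrophage markers averaged well above the array medians on every array, at 10.46 and 10.58 on CX3CR1low replicates 1 and 2 and 10.31 and 10.33 on CX3CR1bright replicates 1 and 2. Of the 14, 9 had a negative difference, where 7555 of all 13133 tested genes did. Their median was -0.33, against -0.070 over all tested genes, and 0 passed the adjusted threshold (limma). Markers of other skin cells were measured too, and several of these lists lay higher in CX3CR1bright. Keratinocyte markers (11 genes) averaged 5.76 and 5.23 on CX3CR1low replicates 1 and 2 but 6.01 and 7.68 on CX3CR1bright replicates 1 and 2. Fibroblast markers (11 genes) averaged 5.72 and 5.61 against 6.44 and 6.58, Langerhans cell markers (5 genes) 5.56 and 5.18 against 6.61 and 8.06, and conventional dendritic cell markers (12 genes) 5.55 and 5.72 against 6.44 and 6.40. The dendritic cell list was mixed in sign. Of its 12 genes 8 had a positive difference, where 5578 of all 13133 tested genes did, and its median was 0.63. At least 2-fold higher with no overlap were 5 of the 12, against 2.94% of all tested genes. These were Ccr7 (2.22), Flt3 (2.13), Ccl22 (1.69), Itgax (1.69) and Cd24a (1.07). The 4 with a negative difference were Irf4 (-0.55), Irf8 (-0.42), Xcr1 (-0.098) and Kit (-0.095). In this list 0 genes passed the adjusted threshold (limma). Mast cell markers (8 genes) went the other way, at 6.47 and 6.58 against 6.15 and 6.08, and endothelial markers (10 genes) overlapped, at 4.01 and 4.23 against 4.31 and 3.77. Of the tested markers, all 11 fibroblast, 10 keratinocyte and 5 Langerhans cell genes had a positive difference, as did 5578 of all 13133 tested genes. None of these markers passed the adjusted threshold (limma, with 8, 2 and 3 higher at an unadjusted p under 0.05, a mark that 7.03% of all tested genes reached in the higher and 11.8% in the lower direction). Without CX3CR1bright replicate 2, 8 of the 10 keratinocyte and 10 of the 11 fibroblast genes stayed positive, and the keratinocyte median fell from 1.65 to 0.53. In such bulk samples, fewer cells of a type and less RNA per cell cannot be told apart. CX3CR1bright replicate 2 had the highest keratinocyte markers, and results that rest on that array are marked below. The Langerhans cell genes were uneven between the CX3CR1bright arrays. From replicate 1 to 2, Cdh1 went from 6.47 to 9.24, Cldn1 from 6.89 to 8.81 and Epcam from 4.53 to 6.73. Cd207 went only from 6.97 to 7.54, and Il1r2 from 8.18 down to 7.98.

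**Figure D2:**
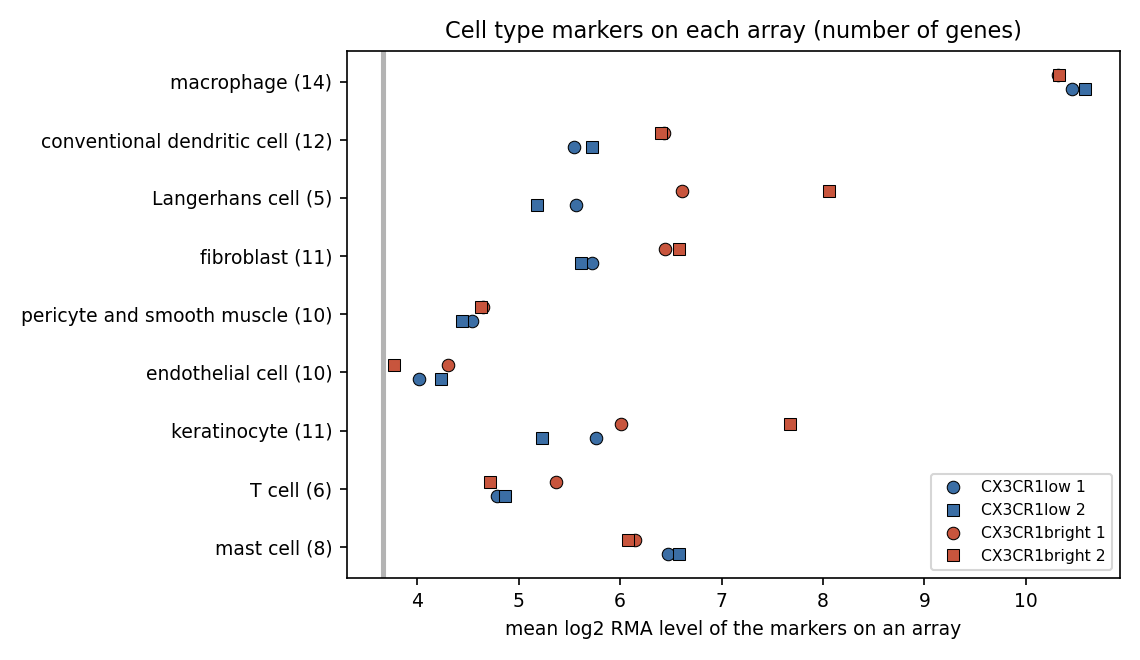
Mean log2 RMA level (horizontal axis) of the marker genes of 9 cell types on each array, with the number of genes in brackets. Blue points are CX3CR1low, red points CX3CR1bright, circles replicate 1, squares replicate 2, and the grey band spans the array medians. Macrophage markers lie highest on every array, and keratinocyte and Langerhans cell markers stand out on CX3CR1bright replicate 2, at 7.68 and 8.06.

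Enpep encodes aminopeptidase A, which removes an acidic residue from the amino end of peptides and turns angiotensin II into angiotensin III. Its log2 levels (transcript cluster 17410251) were 8.10 and 8.30 on the CX3CR1low arrays and 5.20 and 5.65 on the CX3CR1bright arrays. The groups lay 2.45 apart at their nearest points, far more than the 2 arrays of either subset differed, and all 4 levels were above the array medians. The means were 8.20 ± 0.14 and 5.42 ± 0.32 (SD, n = 2), a difference of -2.78 ± 0.23 (SE), which is given as a description, since it is what Enpep was chosen for. With 1 array left out it ran from -3.01 to -2.55. Enpep also marks pericytes and some other stromal cells; the 10 pericyte and smooth muscle markers averaged 4.54 and 4.45 on the CX3CR1low arrays and 4.64 and 4.63 on the CX3CR1bright arrays, and their part in the Enpep level was not tested.

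Anpep encodes aminopeptidase N, a zinc enzyme of the same family with a broad taste for neutral residues, which acts on angiotensin III, enkephalins and other peptides. Its log2 levels (cluster 17492431) were 11.04 and 11.14 on the CX3CR1low arrays and 9.43 and 9.05 on the CX3CR1bright arrays. Both CX3CR1bright arrays lay below both CX3CR1low arrays, with a gap of 1.60. The means were 11.09 ± 0.072 and 9.24 ± 0.27 (SD, n = 2) and differed by -1.85 ± 0.22 (SE, limma, adjusted p = 0.0632), so that Anpep missed the threshold. It passed in 2 of 9 alternatives that kept all arrays (limma, adjusted p from 0.0123 to 0.129). These were a filter that kept brighter genes (adjusted p = 0.0159) and an intensity trend (adjusted p = 0.0123). With 1 array left out the difference ran from -2.04 to -1.65. It was -2.04 without CX3CR1bright replicate 1, which leaves the array with the highest keratinocyte markers, and -1.65 without CX3CR1bright replicate 2. Fibroblasts and dendritic cells can carry Anpep as well, and their markers averaged higher on the CX3CR1bright arrays, with the dendritic cell genes mixed in sign, as given above. The part of these cells in the Anpep level was not tested.

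The DNA around their transcription starts is shown because Enpep and Anpep differed in the same direction, with that of Dpp4, which differed in the other, for contrast. The windows run from 5′ to 3′ on the gene's strand (minus for all 3) and come from RefSeq, build GRCm38.p6: chr3:129332700-129332999 for Enpep, chr7:79848161-79848460 for Anpep and chr2:62412182-62412481 for Dpp4. Capitals mark matches, on either strand, to GAGGAA (the core bound by the myeloid factor PU.1), TGCTGA (a MAF core), CACGTG (an E-box), TGANTCA (an AP-1 site), GGGCGG (a GC box) or TATAAA (the box named for these letters).
Enpep promoter window: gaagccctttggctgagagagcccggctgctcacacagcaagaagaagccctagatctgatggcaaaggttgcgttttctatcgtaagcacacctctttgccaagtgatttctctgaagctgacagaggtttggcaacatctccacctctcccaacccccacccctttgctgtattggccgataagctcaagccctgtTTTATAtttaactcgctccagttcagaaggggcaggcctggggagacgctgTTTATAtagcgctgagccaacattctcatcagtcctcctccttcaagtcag
Anpep promoter window: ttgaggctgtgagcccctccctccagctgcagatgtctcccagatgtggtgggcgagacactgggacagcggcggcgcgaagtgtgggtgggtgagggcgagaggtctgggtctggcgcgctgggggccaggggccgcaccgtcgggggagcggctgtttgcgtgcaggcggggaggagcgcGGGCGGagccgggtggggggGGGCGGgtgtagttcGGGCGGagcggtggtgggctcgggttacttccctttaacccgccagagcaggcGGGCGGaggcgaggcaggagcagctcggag
Dpp4 promoter window: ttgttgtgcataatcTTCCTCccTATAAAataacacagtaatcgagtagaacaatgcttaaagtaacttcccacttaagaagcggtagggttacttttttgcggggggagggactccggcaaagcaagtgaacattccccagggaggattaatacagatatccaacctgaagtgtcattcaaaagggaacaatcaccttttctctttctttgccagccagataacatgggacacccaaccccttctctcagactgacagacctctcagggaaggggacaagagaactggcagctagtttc
The Enpep window holds 2 TATA matches, both read as TTTATA and so on the strand opposite the gene's, and no other. The Anpep window holds 4 GC boxes and no other, and 72.3% of its bases are G or C, against 51.3% for Enpep and a median of 52.7% over 32817 windows of 300 bases. The Dpp4 window holds 1 PU.1 core and 1 TATA match, the latter on the gene's own strand from base 24, and 45.3% of its bases are G or C. Over all windows, 13.6% hold a TATA match, 35.6% a GC box, 28.3% a PU.1 core, 19.5% a MAF core, 7.81% an AP-1 site and 7.15% an E-box. Enpep and Anpep therefore share none of the searched letters in these windows, and a match says nothing of whether a factor binds there.

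Dpp4 encodes dipeptidyl peptidase 4, which clips pairs of residues from chemokines such as CXCL12 and from incretin hormones, and which occurs on T cells, dendritic cells and fibroblasts of the skin. Its log2 levels (cluster 17385719) were 3.59 and 3.68 on the CX3CR1low arrays and 4.55 and 4.82 on the CX3CR1bright arrays. The CX3CR1low levels lay at the array medians and can be background, so the size of the difference is limited by it, and the gene passed the filter through its CX3CR1bright levels. The means of 3.63 ± 0.064 and 4.68 ± 0.19 (SD, n = 2) differed by 1.05 ± 0.20 (SE, limma, adjusted p = 0.103), short of the threshold, and the difference ran from 0.91 to 1.18 with 1 array left out. Markers of fibroblasts and of conventional dendritic cells averaged higher on the same arrays, the latter mixed in sign, as given above. T cell markers (6 genes) overlapped, averaging 4.79 and 4.86 on the CX3CR1low and 5.37 and 4.72 on the CX3CR1bright arrays. Among them Cd4 stood at 8.67 and 8.84 against 6.56 and 7.08, and the other 5 genes averaged 4.02 and 4.07 against 5.13 and 4.25. Of these 5, Cd3e, Cd3d, Cd2 and Cd8a overlapped between the subsets and Cd3g did not. Their mean was highest on CX3CR1bright replicate 1, whereas Dpp4 was highest on CX3CR1bright replicate 2. The part of these cells in the Dpp4 level was not tested.

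Cpd encodes carboxypeptidase D, which removes basic residues in the trans-Golgi network and at the surface. Its log2 levels (cluster 17266157) were 8.97 and 9.14 on the CX3CR1low arrays and 9.47 and 10.15 on the CX3CR1bright arrays. The groups did not overlap but lay 0.33 apart, less than the 2 CX3CR1bright arrays differed from each other. The means of 9.05 ± 0.13 and 9.81 ± 0.48 (SD, n = 2) differed by 0.76 ± 0.28 (SE, limma, adjusted p = 0.240), and the difference was 0.42 with CX3CR1bright replicate 2, where keratinocyte markers were highest, left out. Cpm, the carboxypeptidase that is anchored to the membrane by a lipid and is known from macrophage maturation in humans, stood at 3.03, 3.15, 3.74 and 2.94 on CX3CR1low replicates 1 and 2 and CX3CR1bright replicates 1 and 2. It exceeded the array median on 1 array, was below the filter and was not tested.

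Ace encodes the angiotensin-converting enzyme, which makes angiotensin II and breaks down bradykinin. Its log2 levels (cluster 17257444) were 4.27 and 3.95 on the CX3CR1low arrays and 4.12 and 4.33 on the CX3CR1bright arrays, above the array medians by less than 1 and overlapping between the subsets. The difference was 0.12 ± 0.21 (SE, limma, adjusted p = 0.824), with a 95% interval of -0.43 to 0.66. It was -0.045 without CX3CR1low replicate 2. Endothelial cells are a known site of Ace, and their markers overlapped between the subsets too; their part in the Ace level was not tested.

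Mme encodes neprilysin, an endopeptidase that ends the action of substance P, enkephalins and natriuretic peptides. Its log2 levels (cluster 17397990) were 3.84 and 3.18 on the CX3CR1low arrays and 3.23 and 4.59 on the CX3CR1bright arrays. CX3CR1bright replicate 2 alone stood clearly above the array medians. The difference was 0.40 ± 0.50 (SE, limma, adjusted p = 0.725), with a 95% interval of -0.86 to 1.66 that leaves both directions possible, and it was -0.28 without that array.

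Ece1 encodes endothelin-converting enzyme 1, a relative of neprilysin that releases the active endothelins from their precursors. Its log2 levels (cluster 17420347) were 8.15 and 8.36 on the CX3CR1low arrays and 7.92 and 8.82 on the CX3CR1bright arrays, so that the CX3CR1bright arrays held both the lowest and the highest value. The difference was 0.12 ± 0.34 (SE, limma, adjusted p = 0.890), with a 95% interval of -0.73 to 0.97, and it turned to -0.33 without CX3CR1bright replicate 2. Ace, Mme, Ece1, Cpd and Dpp4 all had their highest level on CX3CR1bright replicate 2, where the keratinocyte markers were highest as well; the part of other cells in these levels was not tested.

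**Figure D3:**
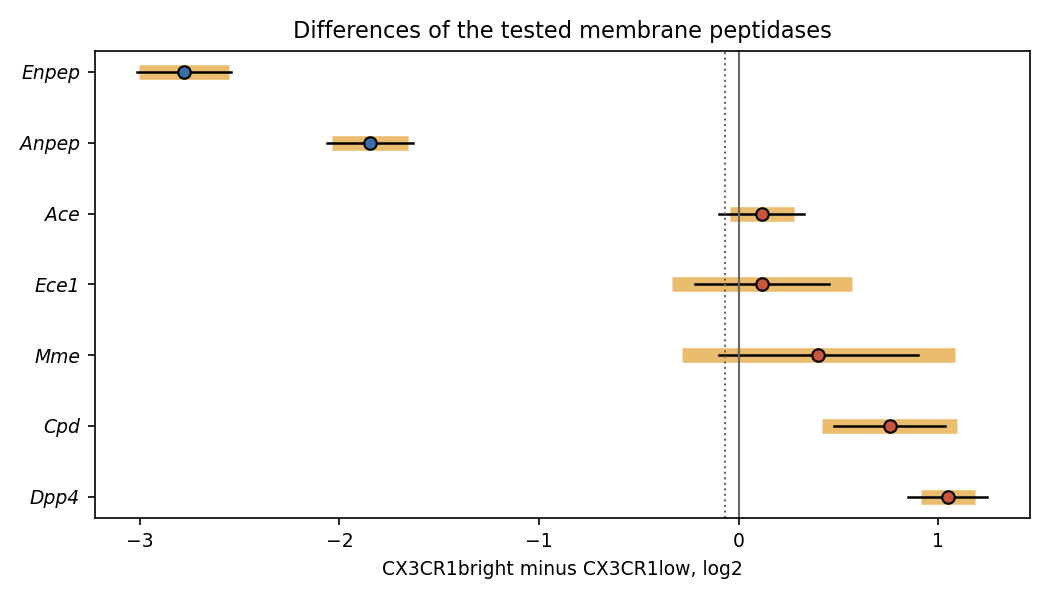
Difference between the subsets, CX3CR1bright minus CX3CR1low on the log2 scale, for the 7 tested membrane peptidases. Points are the fitted differences, black lines ±1 SE, yellow bars the range with 1 array left out, and the dotted line the median of all tested genes, -0.070. Enpep and Anpep lie at -2.78 and -1.85 with narrow bars, and the bars of Ace, Ece1 and Mme cross 0.

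The peptide systems on which these enzymes act were read from further lists. Of 16 other genes of the angiotensin system, 14 were analysed and 9 tested, and 0 passed the adjusted threshold in either direction (limma). At an unadjusted p under 0.05, 0 were higher and 3 lower (limma), where 7.03% and 11.8% of all tested genes were. A negative difference was found for 8 of the 9, and for 7555 of all 13133 tested genes. The list's median was -0.41, against -0.070 over all tested genes. Without CX3CR1bright replicate 1 these medians were -0.18 and -0.075. Agtrap, which binds the angiotensin II type 1 receptor and promotes its uptake, stood at 5.20 and 5.55 in CX3CR1low and at 4.77 and 4.61 in CX3CR1bright cells, a difference of -0.69 ± 0.21 (limma, adjusted p = 0.190). The lysosomal carboxypeptidase gene Ctsa differed by -0.47 ± 0.18 (limma, adjusted p = 0.259). Cma1, the mast cell chymase that can make angiotensin II, differed by -0.59 ± 0.19 (limma, adjusted p = 0.192), and the 8 mast cell markers, of which it is 1, averaged lower in CX3CR1bright as well; their part in its level was not tested. Of the angiotensin receptor genes, named after their values were seen, Agtr1a, Agtr2 and Mas1 lay below the array median on all 4 arrays. Agtr1b, at 4.05 and 3.84 in CX3CR1low and 4.02 and 3.84 in CX3CR1bright, lay above it on all 4 by less than 1.

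Among 28 peptide ligand and receptor genes, 27 were analysed, 15 tested and 0 called (limma), where 0.137% of all tested genes were called. At an unadjusted p under 0.05, 2 were higher and 1 lower (limma), against 7.03% and 11.8% of all tested genes. The median difference was 0.062, or -0.020 without CX3CR1low replicate 2, against -0.070 over all tested genes in both cases. At least 2-fold apart with no overlap were 3 of the 15, Ednrb, Edn1 and Ramp3, against 5.83% of all tested genes, and the CX3CR1low levels of Edn1 can be background. That count is a description and is not read against the background, since Edn1 passed the filter through the subset in which it is high. Ednrb, the endothelin receptor that binds all endothelins alike, stood at 10.40 and 11.07 on the CX3CR1low arrays and at 8.48 and 8.65 on the CX3CR1bright arrays, 4.49-fold lower, with a difference of -2.17 ± 0.28 (SE, limma, adjusted p = 0.0706). Edn1, which encodes endothelin-1, went the other way, from 3.53 and 3.70, at the array medians, to 4.73 and 4.75, a difference of 1.12 ± 0.19 (SE, limma, adjusted p = 0.0919). Ramp3, an accessory chain that gives the calcitonin-like receptor its affinity for adrenomedullin, a substrate of neprilysin, stood at 6.96 and 6.74 against 8.51 and 8.00, a difference of 1.41 ± 0.25 (SE, limma, adjusted p = 0.0966).

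Further peptidases came from 2 lists. Of 23 other aminopeptidases and dipeptidyl peptidases 18 were tested and 0 called (limma), where 0.137% of all tested genes were. At an unadjusted p under 0.05, 0 were higher and 3 lower (limma), against 7.03% and 11.8% of all tested genes. Their median was -0.25, against -0.070 over all tested genes. No gene of the list was at least 2-fold apart without overlap, where 5.83% of all tested genes were. The 3 with the smallest p were Dpp7, a lysosomal dipeptidyl peptidase, at -0.95 ± 0.21, Metap1, which removes the initiator methionine, at -0.74 ± 0.18, and the cytosolic Dpp3, which can degrade angiotensins and enkephalins, at -0.75 ± 0.22 (limma, adjusted p = 0.127, 0.145 and 0.176). Of 23 other carboxypeptidases and neprilysin relatives 13 were tested and 0 called (limma), where 0.137% of all tested genes were. At an unadjusted p under 0.05, 3 were higher and 1 lower (limma), against 7.03% and 11.8% of all tested genes. Their median was 0.21, or -0.0017 without CX3CR1low replicate 2, against -0.070 over all tested genes in both cases. At least 2-fold higher with no overlap were 2 of the 13, Cpxm1 and Cpe, against 2.94% of all tested genes. Cpxm1, an inactive member of the carboxypeptidase family, stood at 4.68 and 4.15 against 5.50 and 6.18, a difference of 1.42 ± 0.32, its relative Cpxm2 differed by 0.67 ± 0.18, and Cpe, which matures hormones and neuropeptides, by 1.02 ± 0.30 (limma, adjusted p = 0.126, 0.164 and 0.178). Fibroblast markers averaged 5.72 and 5.61 in CX3CR1low and 6.44 and 6.58 in CX3CR1bright; their part in these 3 levels was not tested.

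**Figure D4:**
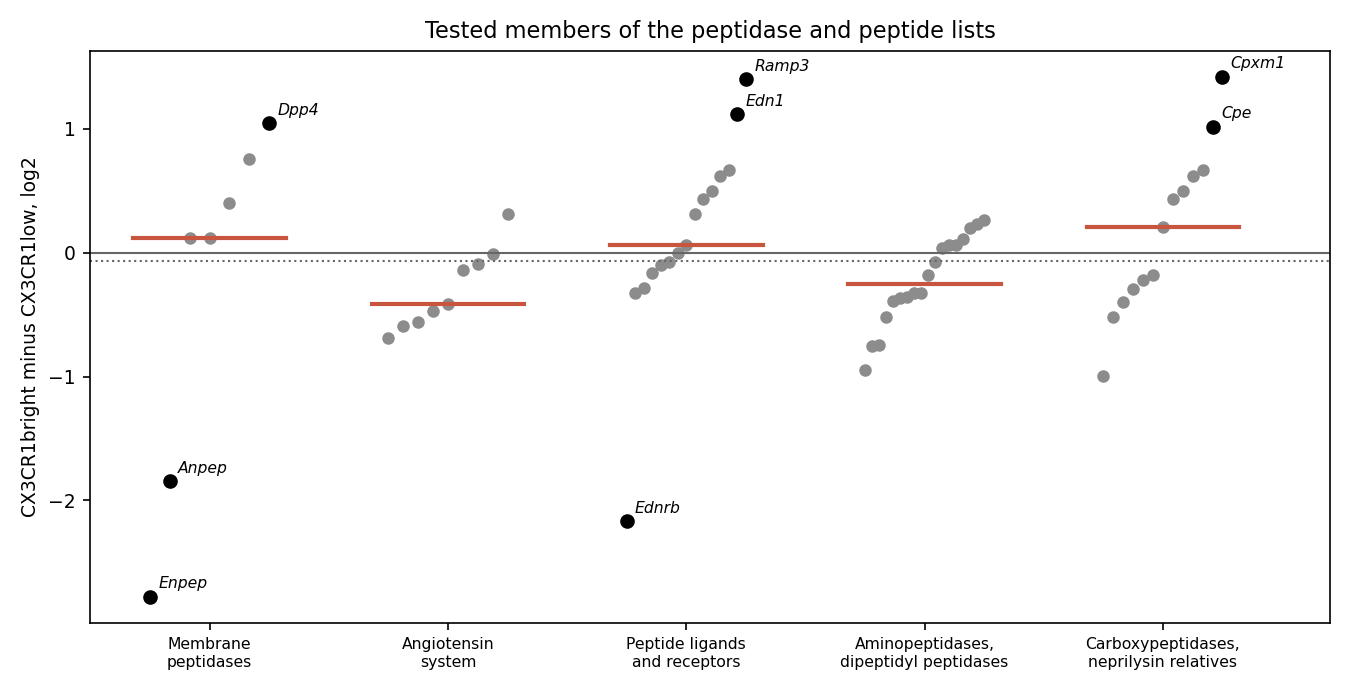
Difference between the subsets (vertical axis, CX3CR1bright minus CX3CR1low, log2) for the tested genes of 5 lists, sorted within each list. Each point is 1 gene, red bars are list medians, the dotted line is the median of all tested genes, and black named points are at least 2-fold apart with no overlap. Enpep, Ednrb and Anpep lie lowest, at -2.78, -2.17 and -1.85, and 0 genes of the angiotensin and aminopeptidase lists reach 2-fold.

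Genes with a pattern like that of a member were ranked by Euclidean distance between log2 levels on the 4 arrays, each gene centred on its mean. Over so few arrays this describes likeness in size and direction and no more. Closest to Enpep were Atp6v0d2, a subunit of the lysosomal proton pump (distance 0.265), the lectin gene Cd209g (0.323), the elastic fibre gene Fbln5 (0.397), Cd209b (0.409) and the orphan receptor gene Gprc5b (0.527). Their mean log2 levels were lower in CX3CR1bright by 2.28 to 3.00, against 2.78 for Enpep, going from 8.03 to 5.49 for Atp6v0d2 and from 6.90 to 4.41 for Fbln5. Cd209g and Cd209b are paralogs whose probes may not separate them fully. Closest to Anpep were the transporter gene Slc18b1 (0.0703), with levels of 6.59 and 6.61 against 4.91 and 4.58, the sialic acid lyase gene Npl (0.106) and the lectin gene Clec10a (0.214). Closest to Dpp4 were Ipcef1 (0.0518), Bahcc1 (0.0773) and the membrane metalloproteinase gene Mmp14 (0.119), which stood at 9.01 and 8.96 against 9.83 and 10.17.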

How the data were processed

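RNA of sorted dermal macrophages was measured on 4 arrays after preparation with a WT Pico kit, per the labels' protocols. The deposited log2 levels come from RMA run in version 1.4 of Affymetrix Expression Console, as the submitters' processing notes state. The genome build and the annotation's release were not given in the sources used here. Detection calls were not used here, so a level near the array median, 3.65 to 3.68, can be background, and the small number of arrays limits the precision. Of 34390 clusters 23521 carried 1 symbol, 1814 several and 9055 none; 23328 matched the RefSeq gene table of GRCm38.p6 by Entrez identifier and 0 symbols changed. Taking the cluster with the highest mean left 22180 genes, of which 13133 had at least 2 arrays above the array's median.

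The test was limma 3.58.1 under R 4.3.3 (linear fit and empirical Bayes variances, two-sided, 2 residual and 3.28 prior degrees of freedom), with Benjamini-Hochberg adjustment over all tested genes at 0.05. Differences are CX3CR1bright minus CX3CR1low. Per the design text the samples of each subset were purified from different litters, so the p-values reflect variation among pools, not single mice. No label says that same-numbered replicates share a litter, and the fit has no block. The fit was tested on simulated data. Members, lists and motifs were chosen with earlier results of these data known. Named are all members, the 3 genes with the smallest p in each list, the genes most like Enpep, Anpep and Dpp4, and the check genes. Alternatives were other filters, scalings and variance models, the mean of a gene's clusters, the replicate block and each array left out; leaving arrays out of the counts of members was added after the data were seen.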

Additional observations from a re-analysis of the deposited data

How the results depend on the processing

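Differences of the 7 tested members kept their sign under every change of filter, scaling, variance model and row per gene that was run. With 1 array left out, 3 signs turned: Ace to -0.045 without CX3CR1low replicate 2 (range -0.045 to 0.28), and Mme to -0.28 (range -0.28 to 1.08) and Ece1 to -0.33 (range -0.33 to 0.57) without CX3CR1bright replicate 2. The count of genes past the threshold, 18 of 13133, was 1 with no filter, with quantile normalization and with a robust prior, 33 after cyclic loess, 416 with the stricter filter (mean level above the 75th percentile), 308 under an intensity trend, 154 without CX3CR1bright replicate 1 and 0 when either CX3CR1low array, replicate 1 or 2, or replicate 2 of CX3CR1bright was dropped (limma, 1453, 1212 and 2180 at an unadjusted p under 0.05). No label links the same-numbered replicates beyond their number. Their replicate 1 minus replicate 2 differences correlated at r = 0.16 across 13133 genes, which are not independent replicates. With 1 such difference per subset, that correlation cannot tell whether they shared a litter or a batch. With the replicate block 0 genes passed (limma, 2637 at an unadjusted p under 0.05), and Enpep and Anpep had an adjusted p of 0.129 each (limma). Enpep, past the threshold with all arrays, missed it with no filter, quantile normalization, a robust prior, the replicate block and without any 1 of these 3 arrays (adjusted p = 0.0513 to 0.341), though its difference stayed between -3.01 and -2.55. With 1 array left out, members without overlap numbered 4 to 7 and those at least 2-fold apart 2 to 5, where 72.0% to 79.0% and 6.43% to 9.52% of all tested genes did so. Ace, Mme and Dpp4 could not be fitted with the stricter filter, which their levels did not reach. Levels of Dpp4, Ace, Mme and Cpm near the array medians limit what can be said of them.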
